A study of Mus musculus with 165 samples.

Results

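AP-1 is a family of dimeric transcription factors. Its 8 members measured here, Fos, Fosb, Fosl1, Fosl2, Jun, Junb, Jund and Atf3, were taken by gene symbol from the normalized count table of a differentiation time course, and all 8 symbols were found among the 36255 genes of the table. The choice used no measured value.

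The time course was made in PUER cells, a mouse myeloid progenitor line from PU.1 knockout mice (labelled as bone marrow-derived, while the study's text also names fetal liver) that carries a fusion of PU.1 with the part of the estrogen receptor that binds ligand. Adding 4-hydroxytamoxifen (OHT) activates the fusion protein. The groups were undifferentiated cells in IL3 without OHT (IL3 0h, 3 libraries), cells moved from IL3 to GCSF for 48h (GCSF 0h, 3 libraries, whose titles name OHT while their descriptions and treatment labels place them before it), cells in IL3 with 200 nM OHT (IL3-OHT, macrophage conditions, 81 libraries over 27 time points from 1h to 168h) and cells in GCSF with 100 nM OHT (GCSF-OHT, neutrophil conditions, 78 libraries over the same 27 time points). Each of the 56 groups had 3 libraries except GCSF-OHT 96h, 112h and 152h, which had 2. Every sample is from the one line, in which PU.1 activity comes from the fusion protein alone, and the OHT dose changed with the cytokine, so that dose and cytokine cannot be told apart. Part of the medium was replaced and OHT was added again at 40h, 88h and 136h, and cells harvested after 24h were detached with trypsin.

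AP-1 proteins pair through a leucine zipper next to a basic region that contacts DNA. Jun, Junb and Jund can pair with one another or with a Fos protein, whereas Fos, Fosb, Fosl1 and Fosl2 need a Jun partner, and Atf3, a member of the ATF branch, pairs with Jun proteins and often acts as a repressor. Fos, Fosb, Jun, Junb and Atf3 are classical immediate-early genes, transcribed within minutes of a growth factor, cytokine or stress signal without new protein synthesis, and their transcripts are short-lived. In myeloid cells Jun is known as a partner of PU.1 at macrophage genes, and Jun, Junb and Fos family members are known to accompany monocyte and macrophage differentiation.

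In the GENCODE vM21 annotation of GRCm38, Fos lies at chr12:85473890-85477273 on the plus strand, Fosb at chr7:19302696-19310051 on the minus strand, Fosl1 at chr19:5447547-5455946 on the plus strand and Fosl2 at chr5:32135801-32157842 on the plus strand. Jun lies at chr4:95049034-95052222 on the minus strand, Junb at chr8:84974484-84978718 on the minus strand, Jund at chr8:70698949-70700616 on the plus strand and Atf3 at chr1:191170296-191218039 on the minus strand. Jun, Junb and Jund each consist of 1 exon and the other 5 members of 4 exons in the longest coding transcript. Fosl1 overlaps Ccdc85b, Jun overlaps Junos, Junb overlaps Prdx2, Jund overlaps Gm11175 and Atf3 overlaps Gm24748, in each case on the other strand, and reads of such partners cannot be told apart here because strand use in the counting is not given in the sources used here.

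The stretches before the start sites of Fos, Fosb, Jun and Atf3 are shown because these 4 members moved at the shortest times or by the most. Each is the last 100 bases before the RefSeq start site on GRCm38.p6, written 5′ to 3′ on the strand of the gene. Capitals mark TGACATCA in Jun and TGACG in the other members, or its reverse complement CGTCA in Atf3. The stretches are chr12:85473790-85473889 (plus strand) for Fos, chr7:19310046-19310145 (minus strand) for Fosb, chr4:95052223-95052322 (minus strand) for Jun and chr1:191183334-191183433 (minus strand) for Atf3, whose RefSeq start site lies inside the annotated gene.
Fos: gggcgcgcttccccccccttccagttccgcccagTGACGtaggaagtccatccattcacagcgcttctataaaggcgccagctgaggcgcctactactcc
Fosb: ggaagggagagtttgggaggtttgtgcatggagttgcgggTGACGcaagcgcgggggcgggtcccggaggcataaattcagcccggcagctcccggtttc
Jun: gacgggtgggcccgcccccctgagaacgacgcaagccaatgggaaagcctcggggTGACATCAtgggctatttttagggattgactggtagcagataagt
Atf3: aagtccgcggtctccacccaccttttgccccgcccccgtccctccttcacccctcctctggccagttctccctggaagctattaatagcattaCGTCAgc

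RefSeq windows from 250 bases before to 50 bases after the start site were at hand for 7 of the 8 members, but that of Jund lay upstream of its annotated gene without reaching it and that of Fosl2 inside its gene, so that these 2 did not cover the annotated starts. TGACG, the core that binds factors of the CREB and ATF type, was found on either strand in 4 of these 7 windows (Fos, Fosb, Junb and Atf3) and in 20.8% of all 32851 windows. TGACATCA, the letters of the site through which Jun is known to respond to its own product, began 45 bases before the start of Jun and was held by 3.62% of all windows. The CArG box of serum response factor (1.63% of windows), the full cAMP response element TGACGTCA (1.79%) and the AP-1 element TGACTCA (5.2%) were in none of the 7, which says only that these letters are not in this stretch. GAGGAA, a core that PU.1 can bind, was in the window of Atf3 and in 28.3% of all windows. The search covered both strands, and TGACATCA and TGACG were added after the windows had been read. TGACG lies inside TGACGTCA.

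Values are normalized counts, that is, read counts divided by a factor for each library, and libraries held between 14600246 and 33147945 reads. All 8 members were above the limit that 3 reads set (1.96 to 5.51 normalized counts, depending on the library) in every library, and all 8 passed the filter on low values. In these bulk libraries, fewer cells of a type and less RNA per cell cannot be told apart. Spi1, the gene of PU.1, had group means between 4715 and 12974 normalized counts. At 168h, 4 of 7 macrophage and monocyte markers were higher than at the start and 2 lower in IL3, and 5 higher and 2 lower in GCSF. Of 8 neutrophil markers, 3 were higher and 2 lower in IL3, and 5 higher and 3 lower in GCSF. Higher and lower are calls by the thresholds given below. At 168h, 25.4% of all genes in IL3 and 24.8% in GCSF were called in either direction. Cd3e, which marks T cells, had at most 3 reads in every library, as had Cpa3 and Fcer1a of 4 mast cell and basophil markers, whose summed level of 21.1 to 326 normalized counts came mostly from the other 2, both higher in GCSF-OHT than in IL3-OHT on average. The 120h libraries of both cytokines carry another library-name prefix than the rest. The study calls its replicates biological and gave each time point a plate of its own, so that plate and time point cannot be told apart. Whether the replicates of a time point came from separate starting cultures is not given in the sources used here, and the p-values then measure the spread between these libraries, which may be technical.

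In the undifferentiated cells Jund was the member with the most transcript per length, at 20813 ± 2270 normalized counts per kb of transcript (SD, n = 3). Fosb followed at 2733 ± 36.6, Junb at 1924 ± 73.6 and Fosl2 at 1610 ± 70.2 per kb. Fosl2 and Jun (1538 ± 85.2 per kb) did not differ by more than 2 SD of their difference, nor did Fosl1 (1069 ± 41.7) and Atf3 (1067 ± 8.45), and Fos was the lowest at 286 ± 12.7 per kb. The 3 Jun genes thus held 78.1% ± 1.57 of the summed level per kb of the 8 members and the 4 Fos genes 18.4% ± 1.31. After 48h in GCSF the order below Jund changed: Jund stood at 3271 and Fosl2 at 1167 per kb, and Fosb, next to Jund in undifferentiated cells, was the lowest at 10.1 per kb. At 168h in GCSF-OHT, Jund (2466 per kb), Fosl2 (2431) and Junb (2220) no longer stood apart by more than 2 SD between neighbours in the order, the Fos genes held 39.7% ± 0.599 of the sum and Atf3 0.467% ± 0.0718.

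**Figure D1:**
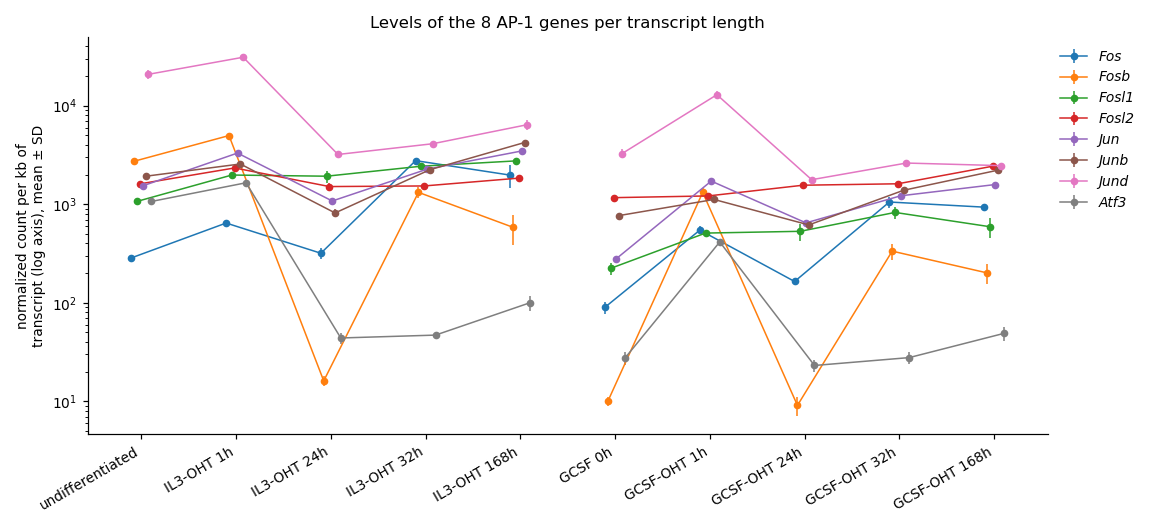
Level of each AP-1 member per kb of its longest coding transcript (normalized counts per kb, log axis) in key groups of the course, as group means with SD. In undifferentiated cells Jund is the highest member at 20813 per kb, while Fosb, next below it there at 2733, is the lowest at GCSF 0h with 10.1 per kb.

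Replacing IL3 with GCSF, before any OHT, lowered 7 of the 8 members. Fosb and Atf3 fell by the most. Fosb was at 10492, 10284 and 10230 normalized counts in the 3 undifferentiated libraries and at 41.6, 33.6 and 39.1 in the 3 libraries of GCSF 0h. Atf3 went from 2099, 2120 and 2132 to 60.99, 46.04 and 56.85, and Fos from 614, 572 and 622 to 218, 188.6 and 164.96. No library of one group reached into the range of the other for these 3 genes. On the log2(normalized count + 1) scale, which understates changes of low genes, the differences were -8.05 (SE 0.182) for Fosb, -5.26 (SE 0.152) for Atf3 and -1.66 (SE 0.119) for Fos, with adjusted p of 3.79e-70, 1.85e-59 and 2.77e-25 (limma across all genes, Benjamini-Hochberg adjustment). A gene was called at an adjusted p under 0.05 and a log2 fold change beyond 0.58 in either direction, and 20.7% of the 17414 genes tested were called lower in this comparison.

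All 3 Jun genes were lower as well. Jund, known as the constitutive Jun protein, was at 35358, 30650 and 38141 normalized counts in undifferentiated cells and at 6083, 5279 and 5007 at GCSF 0h, a log2 fold change of -2.67 (SE 0.161, limma adjusted p = 9.25e-31). Jun moved from 5007, 4595 and 5107 to 928, 880 and 883 (-2.45), Junb from 3393, 3415 and 3634 to 1424, 1449 and 1297 (-1.32), and Fosl1, the Fos protein known as FRA1, from 2083, 1950 and 1947 to 487, 379 and 387 (-2.26). Fosl2, which encodes FRA2, was the exception. Its values of 10952, 10040 and 10588 against 8249, 7511 and 7118 did not overlap, but the difference of -0.47 (SE 0.0818, adjusted p = 3.27e-07) lay within the size threshold.

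**Figure D2:**
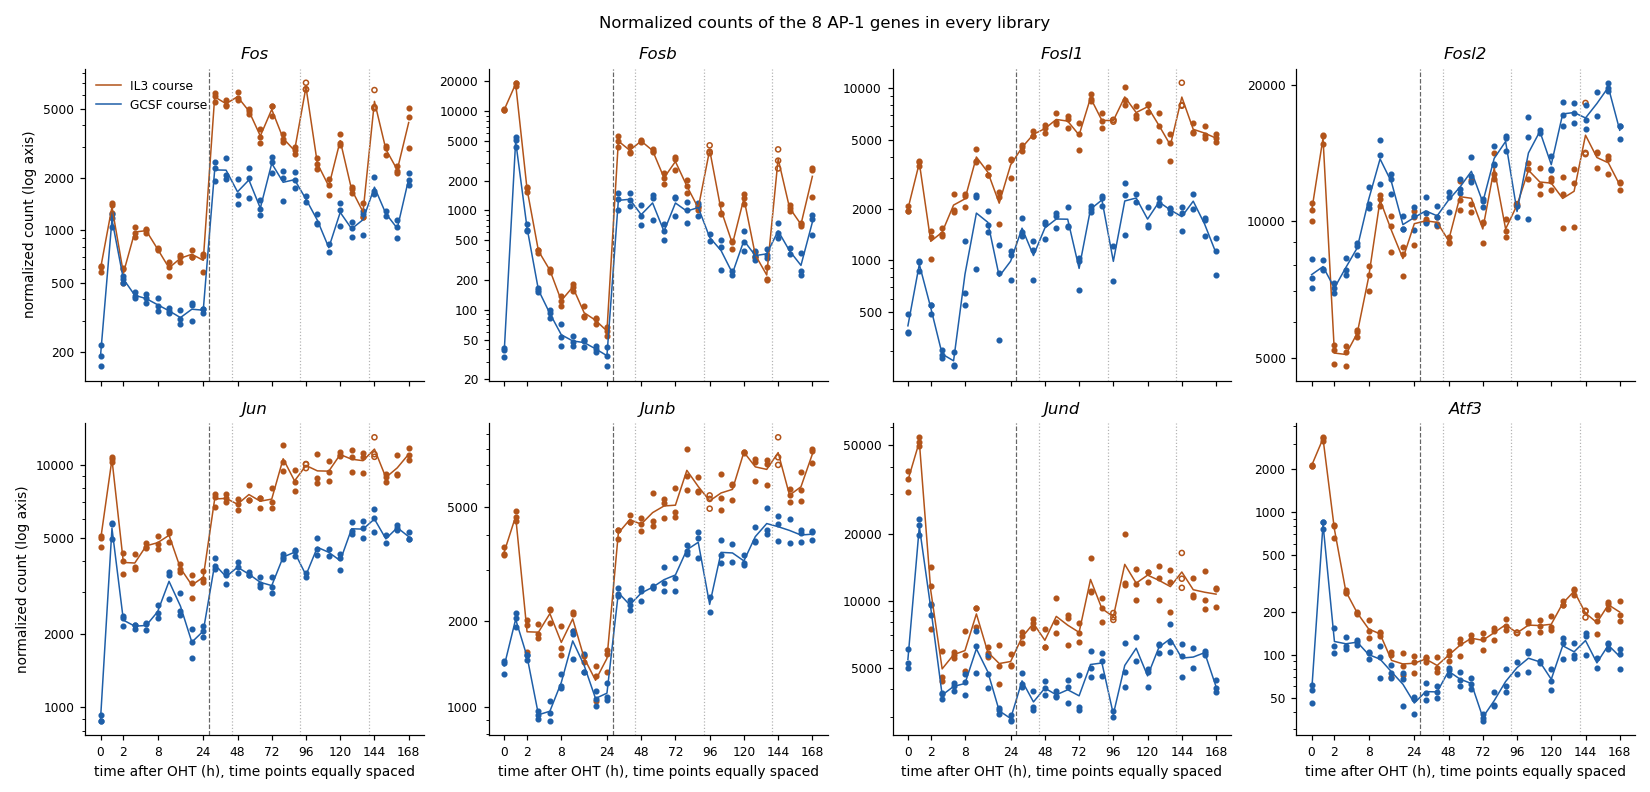
Normalized count of each AP-1 member in every library (log axis) against the time after OHT in hours, in IL3 and in GCSF conditions, with lines through the group means, a dashed line where trypsin harvest began, dotted lines at additions of OHT and open points for the groups left out of the main comparisons. Fosb and Atf3 start 265-fold and 38.3-fold lower in GCSF than in IL3, peak at 1h in both and fall within the first 24h, and Fosb then rises at 32h while Atf3 is not called there.

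Most members were higher after the first hour of OHT in both cytokines, from very different starting levels. No library from 1h on was without OHT. OHT, elapsed time and handling therefore cannot be told apart, here or at later time points. In GCSF, Fosb increased from the 3 values near 40 given above to 4402, 5434 and 5124 normalized counts, a 127.5-fold change (log2 6.99, SE 0.182, limma adjusted p = 8.10e-63). Atf3 reached 762, 856 and 850, 14.9-fold above GCSF 0h (3.90, SE 0.152). Jun, the Jun protein that pairs with these Fos proteins and with Atf3, reached 4970, 5744 and 5726 (2.61, 6.09-fold). Fos, at 1039, 1179 and 1239 (2.60, 6.04-fold), Jund, at 19634, 21809 and 23234 (1.98), and Fosl1, at 869, 997 and 986 (1.19), rose as well, and no library of these 6 genes overlapped the GCSF 0h libraries. Junb differed by 0.54 (adjusted p = 4.28e-06), within the size threshold, and Fosl2 by 0.06 (adjusted p = 0.684). With 6 of 8 members higher, 4.01% of all genes tested were called higher.

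In IL3 the same 6 members were called higher at 1h, by 1.17 for Fos (1254, 1398 and 1427 normalized counts), 1.11 for Jun (10310, 10766 and 10562), 0.89 for Fosl1 (3555, 3763 and 3749), 0.86 for Fosb (17926, 19210 and 19327), 0.63 for Atf3 (3326, 3161 and 3344) and 0.58 for Jund (51733, 54165 and 49285), against 2.81% of all genes tested. All 6 were thus already expressed and changed by 1.49-fold to 2.25-fold. The call of Jund (SE 0.161, limma adjusted p = 0.00431) lay at the size threshold and was lost without replicate 2 (0.46, adjusted p = 0.135). Fosl2 (14846, 15526 and 15432) differed by 0.54 and Junb by 0.41, both within the size threshold. For Fosb, Jund and Atf3 the 1h libraries were the highest of the whole course in both cytokines.

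The response at 1h differed between the cytokines. Taken as the change in GCSF minus the change in IL3, the difference was 6.13 (SE 0.257, limma adjusted p = 4.03e-42) for Fosb, 3.27 (SE 0.215) for Atf3, 1.501 (SE 0.123) for Jun, 1.42 (SE 0.168) for Fos and 1.40 (SE 0.227) for Jund, all called, against 1.58% of all genes called in this direction. It was 0.30 (SE 0.307) for Fosl1, 0.13 (SE 0.140) for Junb and -0.48 (SE 0.116, adjusted p = 0.00218) for Fosl2, none of which was called. The larger change in GCSF did not give a higher level. At 1h, 5 of the 6 members that rose were called lower in GCSF than in IL3, with Fosb at 4987 ± 530 against 18821 ± 777 normalized counts (SD, n = 3), where 19.7% of all genes were called lower. The sixth, Fos, at 1152 ± 102.4 against 1359 ± 92.7, was not called (-0.24, SE 0.119, limma adjusted p = 0.0780).

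**Figure D3:**
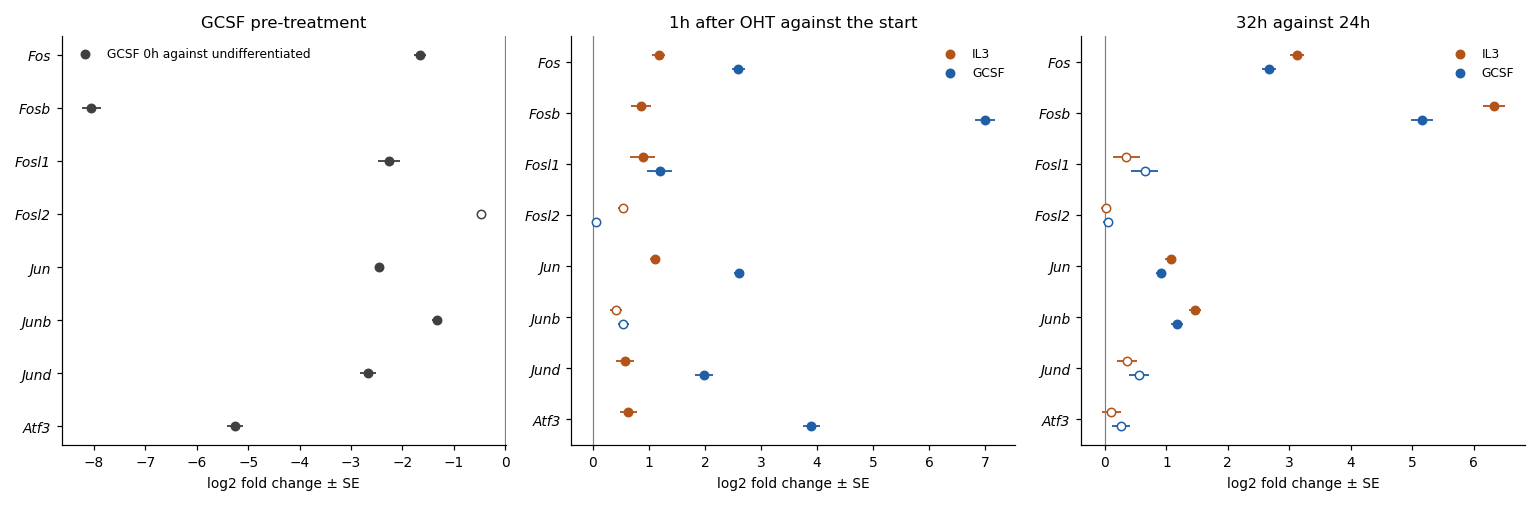
Log2 fold change with standard error of each AP-1 member for the move from IL3 to GCSF before OHT, for the first hour of OHT and for the step from 24h to 32h. Filled points were called and open points were not. Fosb has the largest change before OHT (-8.05) and at 1h in GCSF (6.99), Fos has the largest at 1h in IL3 (1.17), and Fos, Fosb, Jun and Junb are the members called at 32h.

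Between 1h and 2h the members fell again. In IL3 all 8 were called lower, against 8.83% of all genes tested, with Fosb changing most (-3.53, SE 0.182, limma adjusted p = 2.94e-35), followed by Jund (-2.27), Atf3 (-2.12), Fosl2 (-1.58), Fosl1 (-1.53), Jun (-1.42), Junb (-1.35) and Fos (-1.26). At 2h in IL3 the group means of all 8 members lay below those of undifferentiated cells. The distance ranged from Fosb (1635 against 10336 normalized counts) to Fos (567 against 602). Fosl2 (5118 against 10527) and Junb (1829 against 3481), which were not called at 1h, were among them. In GCSF 6 members were called lower, against 2.30% of all genes, namely Fosb (-2.90), Atf3 (-2.74), Jun (-1.26), Jund (-1.21), Fos (-1.13) and Fosl1 (-0.84), while Junb differed by -0.43 and Fosl2 by -0.16. Fosb went on falling in both cytokines. Its IL3 libraries held 1720, 1665 and 1520 normalized counts at 2h, then 397, 404 and 370 by 3h, and by 24h 61.5, 67.4 and 54.2, the lowest group of its IL3 course and 167.2-fold below the undifferentiated cells (log2 -7.39). In GCSF it returned to 34.05, 26.9 and 42.3 at 24h, which did not differ from GCSF 0h by the test (-0.16, adjusted p = 0.577).

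Atf3 also peaked at 1h and fell over the first day, but not step by step with Fosb. In GCSF it stood at 123.9, 119.4 and 122.5 normalized counts on average at 2h, 3h and 4h, while Fosb went from 667 through 157.7 to 91.6, and the changes since the preceding time point were called for Fosb at 3h and 4h (-2.07 and -0.78) and not for Atf3 (-0.04 and 0.04). Atf3 was at 97.9, 89.2 and 74.7 normalized counts at 24h in IL3 (-4.59 against undifferentiated cells) and at 49.2, 50.3 and 38.3 in GCSF (-0.25, adjusted p = 0.229). Across the 20 groups up to 24h, Pearson's r between the log2 group means of Fosb and Atf3 was 0.969, given as a description because the points share libraries and scaling. Fos behaved otherwise. After the drop at 2h it regained 977 normalized counts at 3h in IL3 (0.79 above 2h, called, as were 3.07% of all genes in that direction) and was at 726, 709 and 578 at 24h, a difference of 0.15 from undifferentiated cells (adjusted p = 0.301), and in GCSF it stayed 0.87 above GCSF 0h at 24h (353, 335 and 353).

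The step from 24h to 32h split the family. Fos, Fosb, Jun and Junb rose in both cytokines, 4 of 8 members, where 0.322% of all genes in IL3 and 0.155% in GCSF were called higher. Fos increased from 726, 709 and 578 to 5907, 6140 and 5474 normalized counts in IL3 and from 353, 335 and 353 to 2275, 2468 and 1921 in GCSF. Fosb increased from the 3 values near 60 given above to 4976, 5608 and 4399 in IL3 and from those near 34 to 1303, 1487 and 1004 in GCSF. The groups were far apart, and the fold changes were 80.4 and 35.8 for Fosb (log2 6.33 and 5.16, SE 0.182) and 8.73 and 6.35 for Fos (3.13 and 2.67, SE 0.119) in IL3 and GCSF, with limma adjusted p between 5.42e-58 and 1.54e-39.

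Jun and Junb moved less. Jun was at 3300, 3643 and 3382 normalized counts at 24h and at 7561, 7409 and 6729 at 32h in IL3 (1.07, SE 0.0870), and at 1960, 2172 and 2059 and then 4113, 3822 and 3723 in GCSF (0.91). Junb was at 1323, 1531 and 1575 and then 4153, 3864 and 4145 in IL3 (1.46, SE 0.0991), and at 1082, 1058 and 1208 and then 2604, 2485 and 2433 in GCSF (1.17). For both genes and both cytokines the 24h and 32h libraries did not overlap. Atf3, which had moved with Fosb at 1h, differed by 0.10 in IL3 and 0.26 in GCSF, and Fosl1 (0.35 and 0.65), Fosl2 (0.02 and 0.05) and Jund (0.36 and 0.56) were not called either, with adjusted p of 0.0834 or more.

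This step is also the one at which harvesting with trypsin began, so that detachment and the passage from 24h to 32h cannot be told apart. The same holds for each comparison of a later time point with the start, since neither start was harvested with trypsin. Of 10 genes known to rise when cells are handled, 4 were called higher in IL3, led by Egr1 (3.12), Dusp1 (2.17) and Ier2 (1.70), and 4 in GCSF, led by Egr1 (3.66), Dusp1 (1.98) and Ier2 (1.03). Of all genes, 0.322% in IL3 and 0.155% in GCSF were called higher at this step. Egr1, an immediate-early zinc-finger factor, went from 629 ± 87.2 to 5456 ± 331 normalized counts in IL3 and from 92.8 ± 19.3 to 1175 ± 132 in GCSF (SD, n = 3). Their part in the rise of Fos, Fosb, Jun and Junb was not tested. The heat-shock genes of that list, Hspa1a and Hspa1b, were not called at this step in either cytokine.

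From 32h on, Fos and Fosb stayed above their 24h level in every library of both cytokines. In IL3 they also went up and down together. Fosb was at 1004, 1087 and 1085 normalized counts at 88h, at 3777, 3903 and 4527 at 96h and at 948, 1157 and 919 at 104h. It was at 271, 202 and 199 at 136h, at 4121, 2647 and 3175 at 144h and at 1048, 1140 and 997 at 152h. Fos held 2874, 2739 and 2994 normalized counts at 88h, then 6472, 6432 and 7045 at 96h, and 2595, 2414 and 2240 by 104h. None of the 96h and 144h libraries overlapped either neighbour for these 2 genes. The study left IL3-OHT 96h and 144h out of its own analysis. Their replicates looked different from the adjacent time points when it clustered genome-wide expression. Both groups enter no test but the neighbour comparisons, which were fitted to the libraries of all groups. Spi1 also peaked at both, with a mean of 9252 normalized counts at 96h against 5100 at 88h and 5463 at 104h. It was at 7325 at 144h against 4790 at 136h and 4804 at 152h.

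The time points 8h after each addition of fresh OHT (48h, 96h and 144h) were compared with the mean of the time points before and after. Against its neighbours, Fos was higher by 1.34 (SE 0.103) at 96h and by 1.51 at 144h in IL3, and Fosb by 1.98 (SE 0.158) and 2.75, with limma adjusted p between 5.67e-32 and 7.40e-22. In GCSF, Fosb was higher at 144h by 0.70 (SE 0.165, adjusted p = 0.00112), and Fos at none of the 3 time points. At 48h and 96h in GCSF the differences were -0.45 and -0.25 for Fosb and -0.32 and 0.02 for Fos, none of them called. Fosl1 was higher by 0.77 at 144h in IL3 and lower by -1.18 at 96h in GCSF, where Junb (-0.66) and Jund (-0.73) were also lower, and no member was called at 48h. Over the 6 comparisons, Fosb was called higher in 3 and Fos in 2, while 3.46% of all pairs of gene and comparison were called higher. These calls fell at 96h and 144h in IL3, apart from that of Fosb at 144h in GCSF. The share pools all 6 comparisons and is not given for 96h and 144h in IL3 alone.

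The same test at 72h and 120h, multiples of 24h without fresh OHT that were chosen after the values were seen, called Fosb higher in 4 of 4 comparisons, by 0.68 and 1.70 in IL3 and by 0.60 and 0.77 in GCSF. Fos was called higher in 2 of the 4 (0.90 at 120h in IL3 and 0.61 at 72h in GCSF), and 0.647% of all pairs were called higher. At the 10 time points between multiples of 24h in each cytokine, neither gene was called higher in any of the 20 comparisons by limma, and Fos was lower in 7 and Fosb in 9, where 0.702% of all pairs were called higher and 0.854% lower. The highest of these values for Fosb in GCSF were 0.65 at 56h (adjusted p = 0.0777) and 0.57 at 88h (adjusted p = 0.00967, within the size threshold). These comparisons share their neighbours and are not independent of one another. Each time point between multiples of 24h has such a multiple as a neighbour, so that a peak there lowers its difference by construction. From 160h to 168h, again a multiple of 24h, Fosb was called higher by 1.54 in IL3 and 1.45 in GCSF and Fos by 0.87 and 0.95, where 0.919% and 0.747% of all genes were called higher, and no other member was called. Thus in IL3 the libraries of Fosb at 48h, 72h, 96h, 120h and 144h all lay above those of both neighbouring time points, and in GCSF those of 144h did.

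**Figure D4:**
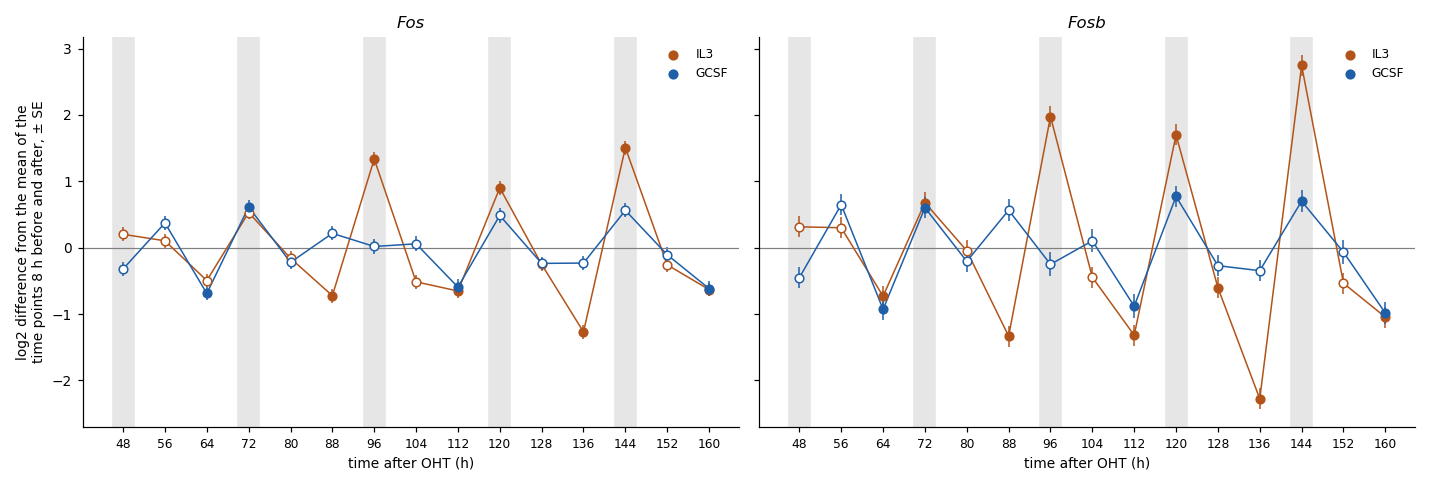
Log2 difference of Fos and Fosb from the mean of the time points before and after, with standard error, against the time after OHT in hours, in IL3 and GCSF conditions, filled where called and with grey bands at multiples of 24h. The points at 96h and 144h in IL3 are the highest, up to 2.75 for Fosb, and those at 72h and 120h are above 0 for both genes, while in GCSF Fosb lies below 0 at 48h and 96h and above 0 at 56h and 88h.

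Fosl1, Jun and Junb ended both courses above their starts and had their highest group means between 104h and 144h. In IL3, Fosl1 reached its highest group mean at 104h (8908 ± 1171 normalized counts, SD, n = 3) and was at 5414, 4874 and 5113 at 168h, 1.36 above undifferentiated cells (SE 0.217, limma adjusted p = 3.42e-08). Jun and Junb ended at 1.18 and 1.14 above undifferentiated cells, with their highest group means at 144h (11623 ± 1200) and 120h (7776 ± 55.6). In GCSF the same 3 genes ended at 1.38, 2.49 and 1.53 above GCSF 0h. At 168h, 25.4% of all genes in IL3 and 24.8% in GCSF were called against the start in either direction. Over the courses, Fosl1 was called higher than its start at 20 of 25 time points in IL3 and 24 of 27 in GCSF, and Jun at 12 of 25 and 27 of 27. Junb was called lower at 8 time points of the IL3 course and higher at 10, and higher at 18 of 27 in GCSF. Over all genes tested, 26.7% of pairs of gene and time point were called in either direction in IL3 and 15.4% in GCSF.

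Fosl2 had the narrowest range of the 8, 3.89-fold between its lowest and highest group mean, whereas Fosb spanned 547-fold and Atf3 89.97-fold. In IL3, Fosl2 was called lower at 3 of 25 time points and higher at none. In GCSF it rose late, was called higher at 15 of 27 time points and stood at 16273, 15190 and 16214 normalized counts at 168h against 8249, 7511 and 7118 at GCSF 0h (1.06, SE 0.0818, limma adjusted p = 7.28e-23). Its highest group mean was that at 160h in GCSF (19779 ± 421).

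Fosb, Jund and Atf3 ended the IL3 course below where they began. Against undifferentiated cells, each was called lower at 24 of 25 time points and higher at 1, the 1h point, and at 168h the differences were -2.29 for Fosb (1360, 2681 and 2571 normalized counts), -1.70 for Jund and -3.42 for Atf3 (SE 0.182, 0.161 and 0.152). In GCSF these genes started low. Fosb was called higher at 22 of 27 time points and ended 4.26 above GCSF 0h (902, 816 and 566), Atf3 was higher at 14 of 27 and ended 0.82 above it, and Jund was higher at 2, lower at 4 and ended at -0.40 (adjusted p = 0.0278, within the size threshold). Fos rose under both conditions, at 19 of 25 time points in IL3 and 27 of 27 in GCSF, and ended 2.75 and 3.37 above its start (2965, 5060 and 4455, and 1946, 2140 and 1826). At 24h, before trypsin was used, Fos had differed from its start by 0.15 in IL3 and 0.87 in GCSF. All 8 members changed at some time in both courses by the moderated F test of limma with the same size threshold, as did 69.7% of all genes in IL3 and 47.7% in GCSF.

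With OHT present, the members were lower in GCSF than in IL3 conditions, apart from Fosl2. Averaged over the 25 time points shared by both courses in the fit, the log2 difference was -1.83 (SE 0.0439) for Fosl1, -1.24 (SE 0.0368) for Fosb, -1.03 (SE 0.0307) for Atf3, -1.02 (SE 0.0240) for Fos, -0.96 (SE 0.0176) for Jun, -0.87 (SE 0.0325) for Jund and -0.70 (SE 0.0200) for Junb, with limma adjusted p of 3.65e-50 or less. These 7 of 8 members stand beside 15.1% of all genes called lower. Fosl2 was higher in GCSF by 0.28 (SE 0.0165, adjusted p = 9.96e-33), within the size threshold.

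Time point by time point, Fosl1 was called lower in GCSF at 25 of 25, Jun at 24, Fosb and Atf3 at 22 each, Fos at 21, Jund at 19 and Junb at 17, where 22.7% of all pairs of gene and time point were called in either direction. Fosl2 was called higher at 5 time points and lower at 1, and Fosb higher at 1. The change in GCSF minus the change in IL3, each since its own start, was called above 0 for every member at 1 or more time points. The call was made at all 25 shared time points for Fosb, Jun, Jund and Atf3. It was made at 18 for Fosl2, at 13 each for Fos and Junb and at 7 for Fosl1. Of all pairs, 12.8% were called in that direction. Both starts enter each of these counts, and undifferentiated cells, shared by every IL3 comparison, stood above GCSF 0h for all 8 members. A value above 0 can be a larger rise in GCSF or a larger fall in IL3. Against their starts, Fosb, Jund and Atf3 were each called lower at 24 of 25 time points in IL3. In GCSF they were called lower at 0, 4 and 0 of 27.

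**Figure D5:**
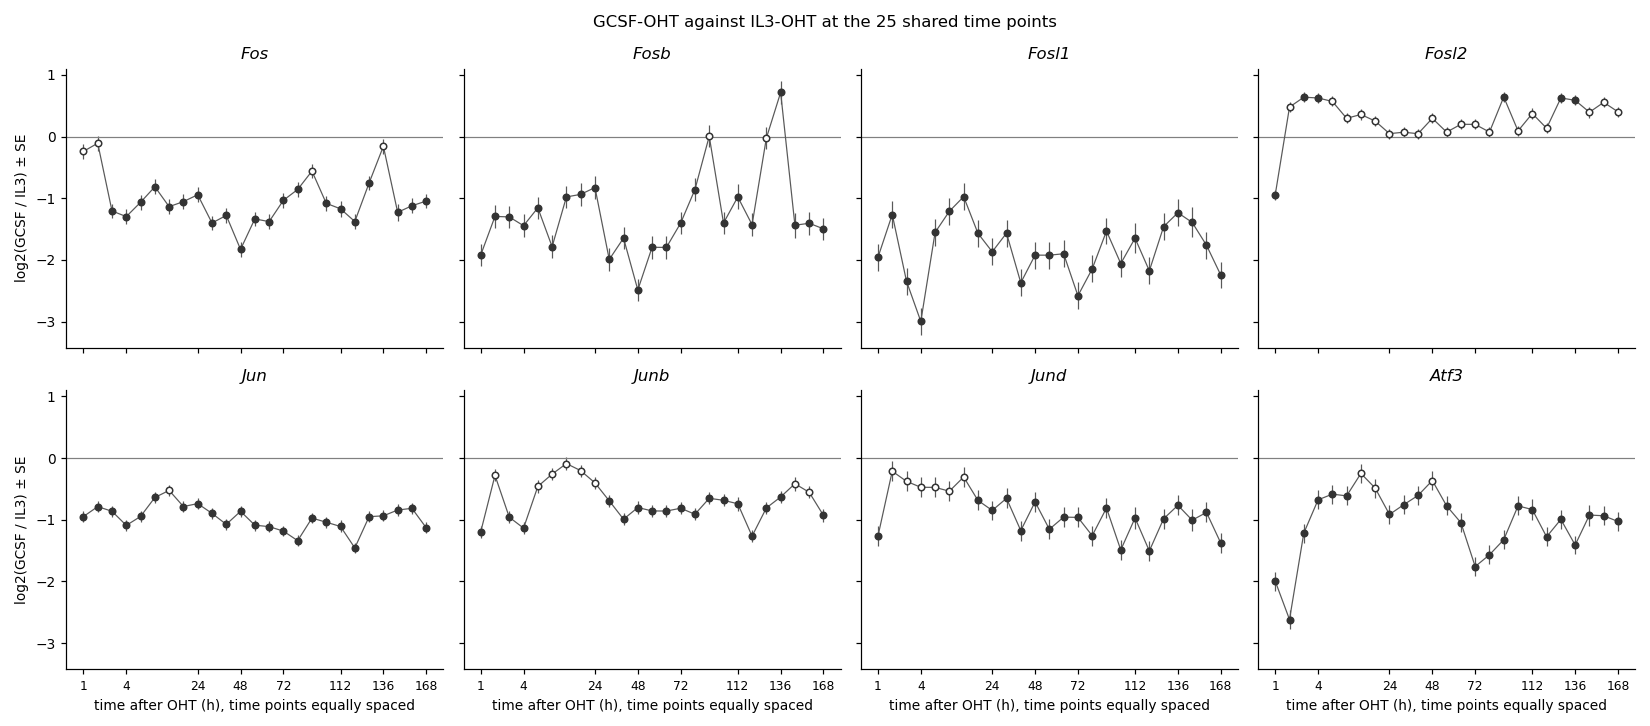
Log2 difference between GCSF-OHT and IL3-OHT for each AP-1 member against the time after OHT in hours, one point with standard error per shared time point, filled where called and with a line at 0. Fosl1 lies below 0 and was called at all 25 time points, while Fosl2 lies near or above 0 at most of them.

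Other parts of the AP-1 pathway were read from lists chosen with earlier results of these data known. Among 12 tested bZIP genes that pair or compete with AP-1, the move to GCSF left 2 higher, Jdp2 (1.81) and Batf (1.41), where 13.0% of all genes were called higher, and 5 lower, led by Maff (-3.20), Mafk (-1.56) and Batf3 (-1.36), where 20.7% were called lower. Batf3 had at most 3 reads in every GCSF 0h library, so that the size of its change is uncertain. After the first hour of OHT, Maff (1.14 in IL3, 2.05 in GCSF) and Mafk (0.61 and 0.87) were higher and Nfe2 (-0.86 and -0.63) was lower. Of all genes, 2.81% in IL3 and 4.01% in GCSF were called higher at that time. Jdp2 and Batf, which encode partners of Jun proteins that lack a strong activation domain, were also higher at 168h than at the start in IL3 (2.18 and 0.81) and in GCSF (1.00 and 0.69), where 25.4% and 24.8% of all genes were called in either direction. None of the 12 was called at 32h. Of 14 MAP kinases and serum response factors upstream of AP-1, Srf (-0.89), Map2k1 (-0.82) and Elk4 (-0.78) were lower at GCSF 0h, a share close to the 20.7% of all genes called lower there, and none was called at 1h, at 32h or between the cytokines on average. These are transcript levels, and kinase activity was not measured.

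Zfp36, which encodes the protein tristetraprolin that binds AU-rich elements and speeds the decay of short-lived transcripts, belongs to a 7-gene turnover list. It was lower at GCSF 0h (-0.79), higher at 1h (1.11 in IL3 and 0.70 in GCSF), higher again at 32h (2.40 and 1.35) and above its start at 168h (2.68 and 2.25). Of the 7, 3 were lower at GCSF 0h (20.7% of all genes). Only Zfp36 was called at 1h (2.81% and 4.01% of all genes higher) and at 32h (0.322% and 0.155%). At 168h, 2 were higher and 1 lower in IL3, and 1 higher and 1 lower in GCSF (25.4% and 24.8% of all genes in either direction). Averaged over the courses, 2 were lower in GCSF than in IL3 (15.1% of all genes). Of 14 tested genes known as AP-1 targets, 12 were lower at GCSF 0h, led by Hmox1 (-4.82), Plaur (-4.11) and Timp1 (-3.12), beside 20.7% of all genes. At 1h, 2 of them were higher in IL3, Il1b (2.79) and Mmp9 (0.64), and 8 in GCSF, led by Il1b (2.91), Plaur (1.44) and Mmp12 (1.38), beside 2.81% and 4.01% of all genes. Il1b and Mmp12 had at most 3 reads in every GCSF 0h library, so that the sizes of their changes from that start are uncertain. At 168h the list went both ways, with 4 higher and 6 lower in IL3 and 9 higher and 3 lower in GCSF, beside 25.4% and 24.8% of all genes called in either direction, and Mmp9, a matrix metalloproteinase, had the largest rise in both (5.37 and 8.38). Averaged over the courses, 9 of the 14 were lower in GCSF than in IL3 and none higher, where 15.1% of all genes were lower. They were led by Mmp12 (-2.999), Mmp13 (-2.42) and Spp1 (-2.31), beside a median of -1.16 for the list and -0.06 for all genes.

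The handling genes moved with the members outside the trypsin step too. All 10 were lower at GCSF 0h, 4 were higher at 1h in IL3 and 6 in GCSF, led there by Dusp1 (2.49), Nr4a1 (2.31) and Klf6 (1.58), and 6 were lower in GCSF than in IL3 on average. The shares of all genes called in these comparisons were 20.7%, 2.81%, 4.01% and 15.1%. Their summed level was 28994 to 30756 normalized counts in the undifferentiated libraries, 6092 to 6465 at GCSF 0h, 9820 to 55921 across IL3-OHT and 6501 to 14799 across GCSF-OHT, with no member of the list absent. Of the lineage markers, 7 of 8 neutrophil genes were higher in GCSF than in IL3 on average, as were 9.34% of all genes, and their summed level was 161569 to 390683 in IL3-OHT and 350810 to 863517 in GCSF-OHT. The part of either list in the differences between the cytokines was not tested.

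Likeness of pattern was measured as Pearson's r between log2(mean normalized count + 1) over the 54 group means without IL3-OHT 96h and 144h, as a description, since the means share scaling and, within a time point, libraries. The closest pairs of members were Jun and Junb (0.887), Fosl1 and Jun (0.862), Jund and Atf3 (0.858) and Fos with Junb (0.790). Fos and Fosb had an r of 0.759 over all groups and of 0.953 from 32h to 168h. The pairs therefore changed with time: Fosb was most like Atf3 in the first day and most like Fos later.

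Nearest patterns were sought outside the family among the genes with a mean of at least 50 normalized counts (10641 counting the members). Those most like Fos were Ier2 (0.866), Zfp36 (0.864) and Egr1 (0.826), and those most like Fosb were Ier2 (0.823), Dusp1 (0.812) and Egr1 (0.742), all of them early-response genes that the lists above also hold. For Jun they were Hcar2 (0.904), Arl4c and Klf2, for Junb Lamb3 (0.935), Wnk2 and Echdc3, and for Jund Dusp16 (0.924), Btg1 and Hic2. Proser2 (0.957), Prdx6 and Ier3 were nearest to Fosl1, Rapgef2 (0.910), Helz2 and Ppard to Fosl2, and Thbd (0.941), Abl2 and 1700017B05Rik to Atf3. On the log scale, Fosl1, Fosl2, Jun, Junb, Jund and Atf3 thus had neighbours other than those of Fos and Fosb. Ier3, a neighbour of Fosl1, is also held by the handling list.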

How the data were processed

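The 165 libraries are poly(A) RNA-Seq of PUER cells in 56 groups. Per the labels, the authors quantified reads with Salmon on GRCm38 and deposited a gene table of normalized counts, here treated as signal values scaled by DESeq2 median-of-ratios factors; the step from transcripts to genes is not given in the sources used here. Dividing each library by what 1 read is worth gave whole reads for 100% of values (largest relative deviation 9.66e-15). The members and lists were chosen with earlier results of these data known, and the 8 members, up to 3 called genes per list and direction and the 3 nearest patterns per member are named. limma 3.58.1 fitted 1 mean per group to log2(normalized count + 1) for the 17414 genes with at least 5 normalized counts in 1 or more of 159 libraries, without IL3-OHT 96h and 144h, which the study left out; neighbour comparisons used all 165 (17439 genes). Calls needed a Benjamini-Hochberg adjusted p under 0.05 over all genes and a log2 fold change beyond 0.58. Levels per kb used the longest coding transcript. Floors cover counting error only. Replicate pairs differed by more than sampling noise (chi-square per gene 2.29 to 73.2). Alternatives were other pseudocounts, filters and scalings, left-out replicates, a replicate block, edgeR 4.0.16 and DESeq2 1.42.0 (contrast errors taken from the group errors). On simulated data, only the limma fit was tested, for GCSF 0h against undifferentiated cells. No protein sequences were used here.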

Additional observations from a re-analysis of the deposited data

Results flagged for a closer look

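The effect of OHT differed between the cytokines for all 8 members by limma's interaction contrast, the change in GCSF since GCSF 0h minus the change in IL3 since undifferentiated cells. The contrast was called at 25 of the 25 shared time points for Fosb, Jun, Jund and Atf3, at 18 for Fosl2, at 13 for Fos, at 13 for Junb and at 7 for Fosl1. Of all pairs of gene and time point, 12.8% were called in that direction. At 1h the differences were 6.13 for Fosb, 3.27 for Atf3, 1.501 for Jun, 1.42 for Fos and 1.40 for Jund on the log2 scale. At 168h they were 6.56 for Fosb, 4.23 for Atf3, 1.32 for Jun, 1.29 for Jund, 0.87 for Fosl2 and 0.62 for Fos. Only called values are listed. Each of them is positive, which can be a larger rise in GCSF or a larger fall in IL3. The 2 starts, which differ for these members, enter each of them. The value of Fosl2 at 1h, given in the Results, was below 0 and not called. GCSF 0h differed from undifferentiated cells by -8.05 for Fosb, -5.26 for Atf3 and -2.67 for Jund. The OHT dose differed between the cytokines as well.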

How the results depend on the processing

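Counts of members called stayed within 1.5 times the reported count under each alternative that was run. Over 12 alternatives the number of calls against the start moved by at most 2.01% in IL3 and 1.95% in GCSF, those between the cytokines by 1.91% and those on the difference of the OHT effects by 6.62%. The calls between consecutive time points moved by at most 6.67% in IL3 and 17.02% in GCSF, those after fresh OHT by 11.1% (11 alternatives) and the members called at 1h by 16.7% in each cytokine, and 4 of 8 members were called at 32h in both cytokines throughout. Of 768 single values, 759 kept direction and side of the thresholds. Jund at 1h in IL3 was no longer called with upper-quartile scaling (0.579), edgeR (0.573), DESeq2 (0.578) or without replicate 2 (0.459), and without replicate 1 Fosl2 at 1h in IL3 (0.586) and Junb at 1h in GCSF (0.604) were called. At 32h, values near 0 changed sign when 1 replicate was left out, ranging from -0.0456 to 0.0721 for Fosl2 and from -0.0166 to 0.225 for Atf3 in IL3 and from -0.0495 to 0.0963 for Fosl2 in GCSF. The cause was not tested.

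Without the log, r was 0.275 for Fos and Fosb, 0.931 for Jun and Junb and 0.944 for Jund and Atf3, and 7 of the 24 nearest patterns were shared. Trib1 was then the nearest gene to both Fosb (0.927) and Atf3 (0.983), so that these members no longer had separate neighbours. With all 56 groups, r was 0.774 for Fos and Fosb and 0.872 for Fosl1 and Jun.

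Replicate numbers name libraries and were not shown to pair them (mean correlation of deviations 0.000315 for same-numbered libraries). With the replicate block, 7 members were called at GCSF 0h, 6 at 1h in each cytokine, 5 for the difference at 1h and 4 at 32h in each cytokine, as without it, and no call changed among the 64 single values. Protein features were not computed.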
